A study of Mus musculus with 26 samples.

Results

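Activity-regulated synaptic and growth effectors were examined as a group of 9 genes, Arc, Npas4, Homer1, Nptx2, Klf2, Cyr61, Ier2, Inhba and Fst, in RNA sequencing of mouse striatum. They were taken by symbol from 5 tables that together list 14833 genes. All 9 were listed in the tables for 4 weeks, 8 weeks and 1 year, 8 in the table of the control-AAV groups (without Inhba) and 7 in the Elk-1-AAV table (without Inhba and Fst). The study asks how striatal expression changes in models of Huntington's disease, and what follows in the R6/1 model when an adeno-associated virus (AAV) delivers the transcription factor Elk-1.

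The R6/1 transgene is made of the first exon of the human huntingtin gene with an expanded CAG repeat. CHL2 is a line with an expanded repeat knocked into the mouse's own huntingtin gene. Untreated groups had 3 libraries each: R6/1 and its wild type at 4 weeks of age, the same pair of genotypes at 8 weeks, and CHL2 with age-matched wild type at 1 year. At 10 weeks there were wild-type mice given control AAV (2 libraries), R6/1 mice given control AAV (2 libraries) and R6/1 mice given Elk-1 AAV (4 libraries). The control vector is named mCherry in the tables, so every injected group carried a virus, and no R6/1 or wild-type group of 10 weeks without virus was analysed here. The sources used here do not give the promoter of the vectors, the site and age of injection, the sex of the mice, or whether each library was 1 animal. FPKM is a level corrected for transcript length and library size. The tables hold 1 FPKM per group, made by the authors from all libraries of that group, so no spread between libraries can be shown. A gene is said to have fallen or risen where q, the false discovery rate over all genes of its table, was below 0.05 in the authors' deposited table. The tables were normalised separately, so levels set side by side across tables carry no test.

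Neurons switch these genes on when calcium enters through synaptic receptors and channels, and the first wave needs no new protein because its transcription factors, CREB and the SRF and Elk complex, are already present. Arc, Homer1 and Nptx2 then act at synapses, Npas4 and Klf2 act on other genes, and Inhba, Fst and Cyr61 encode secreted proteins that act on growth and survival. In the striatum these genes respond to dopamine and to glutamate released by cortical axons. Klf2, Cyr61 and Ier2 are also early-response genes of many cells that are not neurons, the endothelium among them.

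RefSeq promoter windows on GRCm38.p6, another build than the mm9 positions of the tables, were matched for 5 of the 9 genes, Npas4, Homer1, Klf2, Inhba and Cyr61, the last under its present symbol Ccn1. The core of the cAMP response element, TGACG on either strand, occurred in the 250 bases before the start of 4 of these 5 genes, and 17.8% of all 32851 windows of that length held it. These 4 stretches are shown because they hold that core. Capitals mark TGACG or its complement CGTCA, and in addition TTCCGG, the complement of the ETS core CCGGAA, in Homer1, and TATAAA in Cyr61. All are written 5′ to 3′ on the strand of the gene. The Npas4 stretch (chr19:4990128-4990157, minus strand) is limited to the bases around its matches, since an annotated exon of GENCODE M21 covers the window. The Klf2 stretch ends where such an exon begins.
Npas4: cgttcgaCGTCAcgggaTGACGtcggaagt
Homer1 (chr13:93303507-93303756, plus strand): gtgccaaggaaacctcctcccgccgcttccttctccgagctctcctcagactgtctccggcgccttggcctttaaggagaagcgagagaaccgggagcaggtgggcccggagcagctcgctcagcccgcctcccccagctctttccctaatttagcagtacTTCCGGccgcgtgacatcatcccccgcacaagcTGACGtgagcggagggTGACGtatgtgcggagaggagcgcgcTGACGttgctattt
Cyr61 (chr3:145649986-145650235, minus strand): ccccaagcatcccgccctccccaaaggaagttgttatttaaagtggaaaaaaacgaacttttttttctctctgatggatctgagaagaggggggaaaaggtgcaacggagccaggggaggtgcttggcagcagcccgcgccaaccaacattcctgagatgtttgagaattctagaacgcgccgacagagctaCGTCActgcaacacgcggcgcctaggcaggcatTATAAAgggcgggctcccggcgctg
Klf2 (chr8:72318812-72319032, plus strand): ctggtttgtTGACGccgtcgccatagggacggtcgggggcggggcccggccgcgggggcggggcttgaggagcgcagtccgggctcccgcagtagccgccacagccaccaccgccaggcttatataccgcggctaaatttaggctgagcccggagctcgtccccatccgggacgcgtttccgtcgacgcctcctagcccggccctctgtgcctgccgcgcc

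Homer1 held 3 matches of TGACG, at 56, 40 and 14 bases before the start, and Npas4 held 2, in opposite orientation, at 179 and 169 bases. Cyr61 held 1 match at 58 bases, and Klf2 held 1 at 241 bases. The Inhba window held none, nor did that of a further listed start of Homer1. The full element TGACGTCA, which contains the core, matched in no window of the 5 genes and in 1.55% of all windows. No window of the 5 genes held a CArG box (the SRF site, 1.47% of all windows), the AP-1 site TGANTCA (6.75%) or the EGR site GCGTGGGCG (0.536%). CCGGAA, the core bound by ETS factors such as Elk-1, matched in Homer1 alone of the 5 genes, at 89 bases, and in 12% of all windows. TATAAA matched in Cyr61 and in Inhba, at 25 and 91 bases, and in 12.4% of all windows. These are matches of letters and say nothing of binding.

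The 9 genes fell in different subsets in the 4 comparisons of a model with wild type. Arc fell in all 4, Npas4 in 3, Homer1 and Ier2 in 2, and the remaining 5 genes in 1 each. No gene of the 9 rose in any comparison. Npas4, Homer1, Nptx2, Inhba and Fst passed the threshold at 8 weeks and not at 4 weeks, whereas Klf2 and Cyr61 passed it between the injected groups of 10 weeks and in no other comparison. Whether an effect differed between 2 comparisons was not tested. In bulk tissue, fewer cells of a type and less RNA per cell cannot be told apart, and this holds for every fall reported here.

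**Figure D1:**
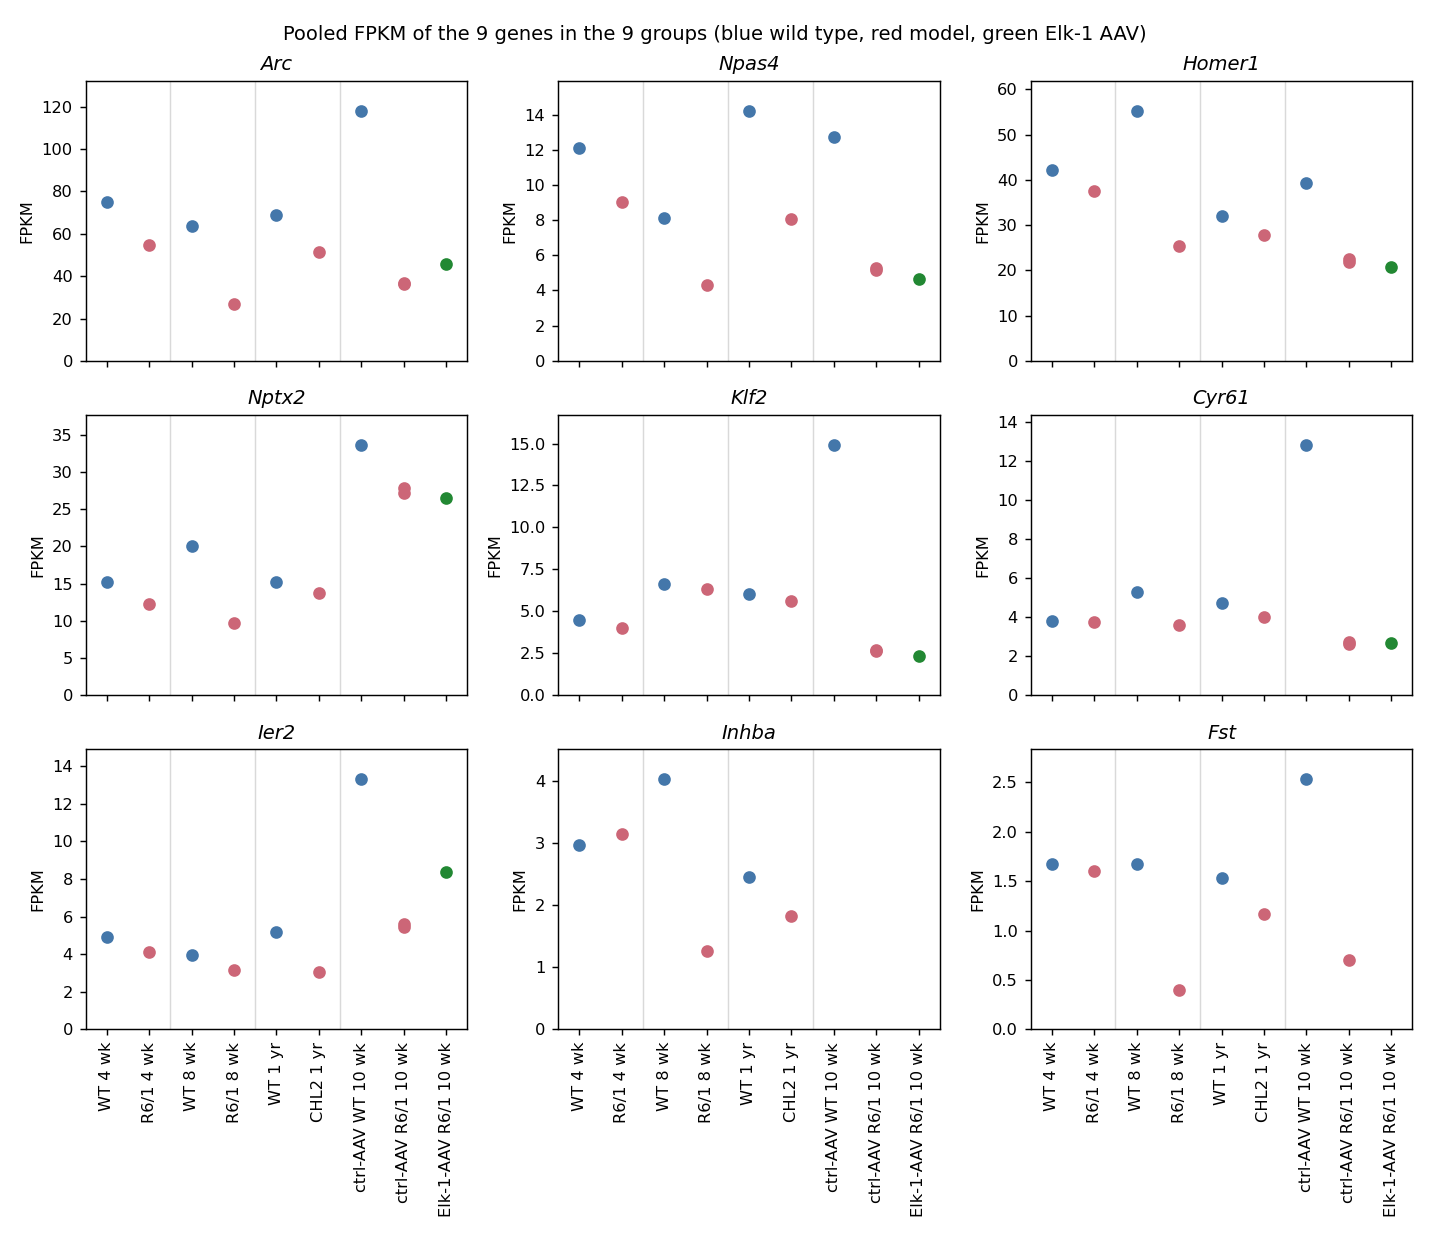
FPKM (linear axis from 0) of each gene in the 9 groups, 1 point per pooled value; control-AAV R6/1 has a point from each of its 2 tables. Arc lies lower in the model than in its wild type in every pair, while Klf2, Cyr61 and Ier2 stand out in the control-AAV wild type, at 14.9, 12.8 and 13.3.

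At 4 weeks Arc was the only one of the 9 genes called. Arc, whose protein directs removal of AMPA receptors from the synapse and whose mRNA travels into dendrites, lies on chromosome 15 (mm9 74499512 to 74503000). It stood at 75.0 FPKM in wild type and 54.6 in R6/1, 72.8% of the wild-type level. The authors' deposited table gives this a log2 fold change of -0.46 with q = 0.0428. Of all its genes 0.193% were called lower, against 1 of these 9. At an unadjusted p below 0.05 there were 3 of these 9, Arc, Npas4 and Nptx2, and 5.36% of all genes in either direction. Npas4, a neuronal transcription factor that acts on inhibitory synapses, had 12.1 and 9.02 FPKM and Nptx2 had 15.2 and 12.2, and neither passed, with q of 0.154 and 0.438 as the authors' deposited table has them. The authors' deposited table has q = 0.999 for the other 6: Homer1 (42.1 and 37.5), Ier2 (4.89 and 4.14), Klf2 (4.46 and 4.01), Fst (1.67 and 1.60), Cyr61 (3.79 and 3.73) and Inhba (2.97 and 3.15). Inhba was the only gene of the 9 with a higher value in R6/1. The median change of the 9 genes in log2(FPKM + 1) was -0.16, beside 0.001 over all genes of the table.

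At 8 weeks 6 of the 9 genes fell, where 5.34% of all genes of the table were called lower, and the authors' deposited table gives all 6 its lowest q, 0.0016. Arc stood at 63.8 FPKM in wild type and 27.0 in R6/1, or -1.24 as log2 fold change by the authors' deposited table. Homer1, a scaffold of the postsynaptic density that ties metabotropic glutamate receptors to calcium stores (chromosome 13, mm9 94074449 to 94174917), went from 55.2 to 25.3 FPKM. The authors' deposited table puts its log2 fold change at -1.12, and the R6/1 pool kept 45.9% of the wild-type level. The Homer1 row covers the whole gene, so the short activity-induced form Homer1a and the constitutive long forms were not separated. Nptx2, a secreted pentraxin that clusters AMPA receptors (chromosome 5, mm9 145306755 to 145318347), went from 20 to 9.76 FPKM, 48.9% of wild type. Npas4 (chromosome 19, mm9 4984354 to 4989971) went from 8.14 to 4.29, 52.8% of wild type. For Nptx2 and Npas4 the authors' deposited table lists log2 fold changes of -1.03 and -0.92. For all 4 of these neuronal genes the R6/1 value at 8 weeks was also below each of the 3 wild-type values of mice without virus.

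The secreted pair of the activin system had the lowest share of the wild-type level among the 9 genes at 8 weeks. Inhba encodes the subunit of activin A (chromosome 13, mm9 16106307 to 16119044), and follistatin, encoded by Fst (chromosome 13, mm9 115242469 to 115248938), binds activin and blocks it. Inhba went from 4.03 to 1.26 FPKM, 31.1% of wild type, and Fst from 1.67 to 0.4, 24% of wild type. The authors' deposited table lists these as log2 fold changes of -1.68 and -2.06. Ligand and antagonist both fell, from low levels: 27.6% and 14.3% of the genes of the table had a lower wild-type FPKM than Inhba and Fst. With 1 added to each FPKM, the change of Fst was -0.93, since the added 1 understates changes of genes this low.

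Klf2, Cyr61 and Ier2 were not called at 8 weeks. Klf2, a zinc finger transcription factor known from endothelium and quiescent T cells (chromosome 8, mm9 74842960 to 74845553), stood at 6.61 FPKM in wild type and 6.34 in R6/1, for which the authors' deposited table has q = 0.991. Cyr61, a secreted matrix protein of the CCN family (chromosome 3, mm9 145309934 to 145312949), stood at 5.27 and 3.61, where the authors' deposited table has q = 0.165. Ier2, a nuclear immediate-early protein (chromosome 8, mm9 87185229 to 87186751), stood at 3.94 and 3.17, a difference with q = 0.739 by the authors' deposited table. Unadjusted p by the authors' Cuffdiff test was 0.765 for Klf2, 0.0154 for Cyr61 and 0.218 for Ier2. In R6/1 these 3 genes kept 80.3% or more of the wild-type level, except Cyr61 with 68.6%. The median change of the 9 genes was -0.93 in log2(FPKM + 1), beside 0.005 over all genes.

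**Figure D2:**
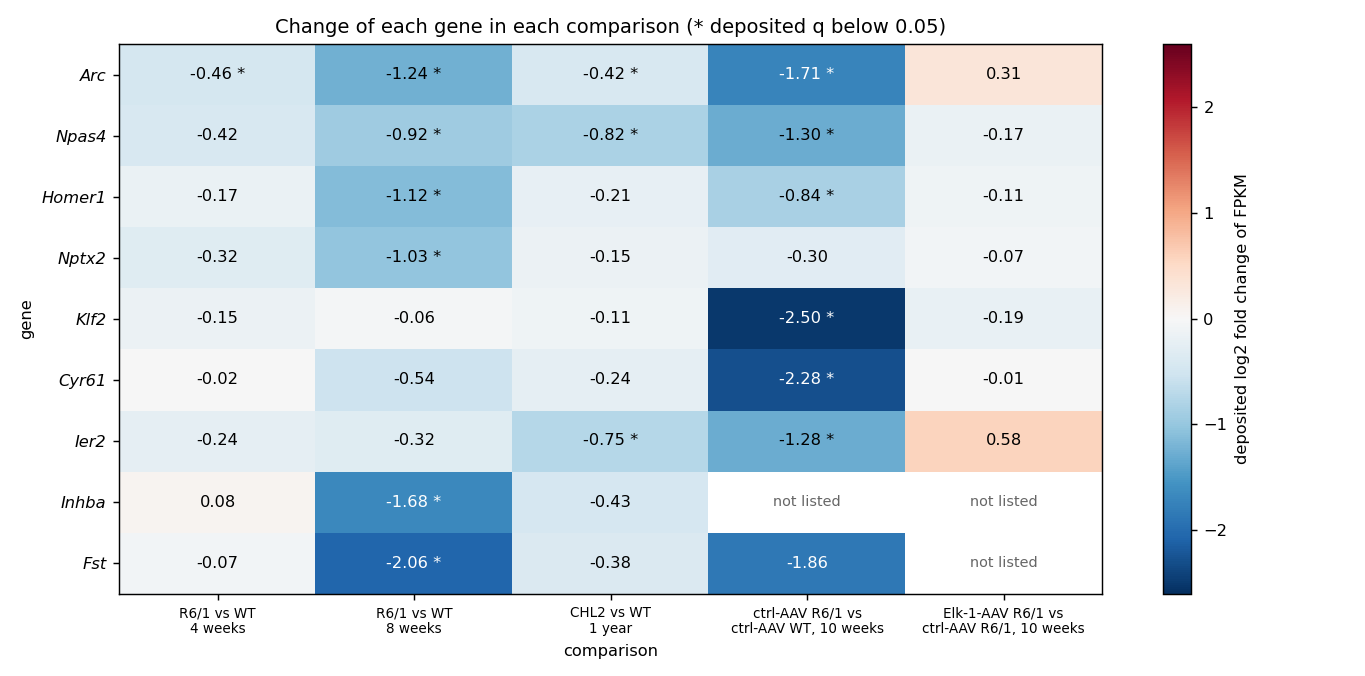
Log2 fold change of FPKM from the authors' deposited tables for each gene (rows) and comparison (columns), coloured from blue (lower) to red (higher), with an asterisk at q below 0.05. Arc carries an asterisk in the 4 comparisons with wild type, and the Elk-1-AAV column has none.

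In CHL2 at 1 year 3 of the 9 genes fell, where 1.97% of all genes of the table were called lower. Npas4 went from 14.2 FPKM in wild type to 8.05 in CHL2, 56.5% of the wild-type level. Ier2 went from 5.16 to 3.06 and Arc from 68.8 to 51.6. The authors' deposited table lists log2 fold changes of -0.82 for Npas4 (q = 0.00303), -0.75 for Ier2 (q = 0.0319) and -0.42 for Arc (q = 0.0163). The order among the 3 was thus not that of R6/1 at 8 weeks, where Arc had the larger log2 fold change than Npas4 and Ier2 was not called. Homer1 (32.0 and 27.7 FPKM), Nptx2 (15.2 and 13.7), Klf2 (6.01 and 5.59), Cyr61 (4.73 and 4.01), Inhba (2.45 and 1.82) and Fst (1.53 and 1.17) had lower values in CHL2 and were not called, with q between 0.495 and 0.919 by the authors' deposited table. The median change of the 9 genes was -0.22 in log2(FPKM + 1), beside 0.002 over all genes.

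Between the control-AAV groups of 10 weeks 6 of the 8 listed genes fell, where 2.51% of all genes were called lower. The lowest share of wild type was that of Klf2, which stood at 14.9 FPKM in wild type and 2.63 in R6/1, 17.6% of wild type. Cyr61 stood at 12.8 and 2.63, or 20.7%, Arc at 118 and 36.1, or 30.6%, and Npas4 at 12.7 and 5.14, or 40.6%. For these 4 the authors' deposited table lists log2 fold changes of -2.50, -2.28, -1.71 and -1.30, each with its lowest q of 0.00312. Ier2 went from 13.3 to 5.47 and Homer1 from 39.2 to 21.9. The authors' deposited table has these at -1.28 with q = 0.0380 and -0.84 with q = 0.00548. Fst stood at 2.53 and 0.697 and did not pass, since the authors' deposited table has q = 0.136 beside its log2 fold change of -1.86. Nptx2, at 33.6 and 27.2, had q = 0.749 by the authors' deposited table. The median change of the 8 genes was -1.15 in log2(FPKM + 1), beside 0.014 over all genes.

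The control-AAV wild-type pool, of 2 libraries, was above the 3 other wild-type pools for 6 of the 8 listed genes. Of 12860 genes 43.6% were above them. The same held for 18 of 25 other immediate-early transcription factors and 23 of 30 other activity-regulated effectors, so it was not particular to these genes. Klf2 stood at 4.46, 6.61 and 6.01 FPKM in wild type of 4 weeks, 8 weeks and 1 year, so its 14.9 was 2.25 times the highest of these. Cyr61 was at 3.79, 5.27 and 4.73 there, against 12.8, which is 2.42 times the highest, and Ier2 was at 4.89, 3.94 and 5.16, against 13.3, which is 2.58 times the highest. For Nptx2 (1.68 times), Arc (1.57) and Fst (1.51) the pool was also above the highest of the 3, while Npas4 (0.891) and Homer1 (0.709) lay below it. Of the 8 listed genes 3 exceeded the highest other wild-type pool by more than 2 times, a threshold chosen after the values were seen, and 2.1% of 12860 genes did so. Of the 25 other factors 3 did so, and of the 30 other effectors 2. In the R6/1 pool given control AAV, Klf2 and Cyr61 (2.63 each) were below the 4.01 to 6.34 and 3.61 to 4.01 FPKM of the models without virus, whereas Ier2 (5.47) and Nptx2 (27.2) were above their values there. Age, virus and library set differ between these pools, and so do markers of neighbouring tissue. Against the highest other wild-type pool, the control-AAV wild type had a median ratio of 1.76 for cortical excitatory markers. The ratio was 0.571 for projection neuron, 0.407 for hypothalamic and septal and 0.157 for choroid plexus markers, beside 0.941 over all genes. These differences cannot be told apart, and the part of tissue composition was not tested.

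**Figure D3:**
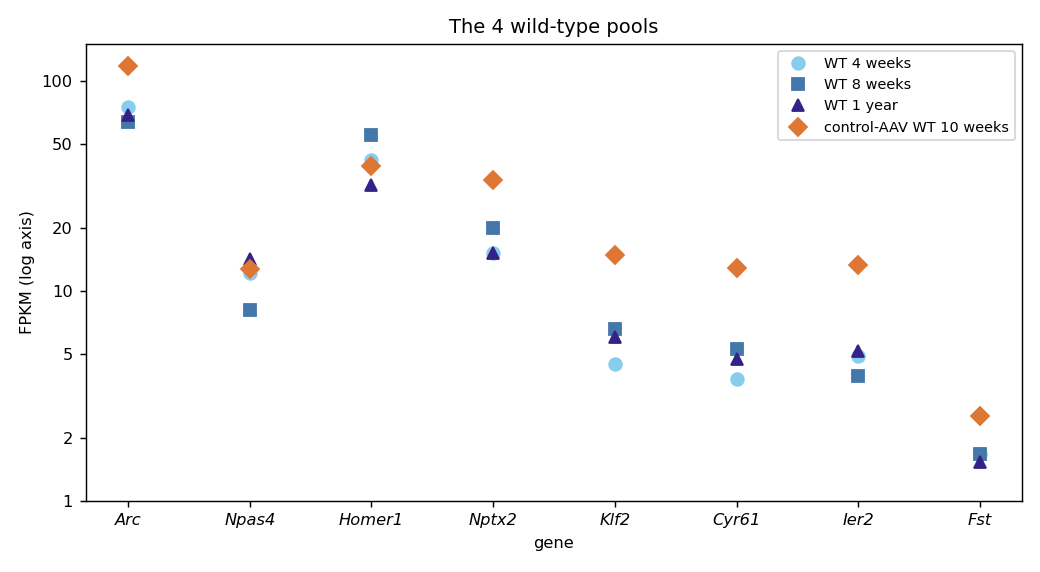
FPKM (log axis) of the 8 genes listed in all 4 tables that contain wild type, in the 3 wild-type pools without virus and in the control-AAV wild-type pool. The orange diamonds of Klf2, Cyr61 and Ier2 (14.9, 12.8 and 13.3) lie above the other 3 pools, and those of Npas4 and Homer1 among them.

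Elk-1 AAV did not change any of the 7 listed genes past the threshold in R6/1. Elk1 itself rose from 15.1 FPKM in control-AAV R6/1 to 30.1 in Elk-1-AAV R6/1, which the authors' deposited table lists as a log2 fold change of 1.00 with q = 0.0122. Of all genes there, 0.575% were called in either direction, against 0 of these 7 by the authors' Cuffdiff test. At an unadjusted p below 0.05 the count was also 0, where 4.91% of all genes passed, and with 1 pooled value per group no other test was run. Ier2 stood at 5.60 and 8.38 FPKM and Arc at 36.9 and 45.6, the 2 of the 7 genes with a higher value under Elk-1 AAV. The authors' deposited table has unadjusted p of 0.095 for Ier2 and 0.0877 for Arc. Npas4 (5.27 and 4.67), Homer1 (22.4 and 20.8), Nptx2 (27.9 and 26.5), Klf2 (2.69 and 2.35) and Cyr61 (2.70 and 2.68) had lower values. The authors' deposited table gives all 7 genes a q of 0.999. The size of change that 2 and 4 libraries could have shown is unknown, since no interval can be computed.

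Set beside the control-AAV wild type, whose value comes from the other 10-week table, the Elk-1-AAV pool was lower for 7 of 7 genes. Arc stood at 45.6 against 118, Ier2 at 8.38 against 13.3 and Klf2 at 2.35 against 14.9 FPKM. These 2 groups have no deposited test. The share of all genes that were lower in this pair was not computed, so the count is not read as particular to these genes. That wild-type pool was above the other wild-type pools for Arc, Ier2, Klf2, Cyr61 and Nptx2. The 2 tables share the control-AAV R6/1 libraries, whose Arc value was 36.1 in one and 36.9 in the other. For Ier2 the shared libraries read 5.47 and 5.60, so a difference between the tables' scales of this size is in every such pair.

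For the lists that follow, 0.193% of all genes were called lower at 4 weeks, 5.34% at 8 weeks, 1.97% in CHL2 and 2.51% between the control-AAV groups. Called higher were 40 of 14539, 113 of 14320, 241 of 14402 and 94 of 12980 genes. Under Elk-1 AAV 35 of 12701 genes were called lower and 38 higher. Other genes of the activity response were taken from a list of 26 immediate-early transcription factors. Of these 1 fell at 4 weeks, 16 at 8 weeks and 6 in CHL2, where 1 rose, and 10 of the 25 listed fell between the control-AAV groups. Under Elk-1 AAV 0 of the 23 listed were called by the authors' Cuffdiff test, with 2 at an unadjusted p below 0.05. Egr2, a zinc finger factor, was the one at 4 weeks, and it went from 8.92 to 1.01 FPKM at 8 weeks and from 7.23 to 1.52 between the control-AAV groups. Nr4a1, a nuclear receptor, went from 55.9 to 24.8 at 8 weeks and from 87.1 to 32.0 between the control-AAV groups, and Nr4a3 was the one that rose in CHL2 (4.56 to 7.38). Btg2, an antiproliferative gene, was not called at 8 weeks (7.5 and 5.58), like Klf2 and Cyr61, and fell from 20.1 to 5.19 between the control-AAV groups.

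Among relatives of Ier2 and Klf2, Ier5 fell at 8 weeks (20.2 to 12), in CHL2 (20.2 to 13.8) and between the control-AAV groups (43.5 to 20.5). Ier5l fell at 8 weeks (12 to 5.34) and in CHL2 (16.8 to 10.4), and Ier3 was called in none. Klf9 and Klf10 fell at 8 weeks and between the control-AAV groups, while Klf4 and Klf6 were called in no table that lists them. A list of 30 other activity-regulated effectors had 11 genes lower at 8 weeks, 11 lower between the control-AAV groups, 3 lower and 1 higher in CHL2, and 1 higher at 4 weeks, and 0 of the 28 listed were called under Elk-1 AAV by the authors' Cuffdiff test, with 4 at an unadjusted p below 0.05. Dusp1, a phosphatase of MAP kinases, went from 46.8 to 10.9 between the control-AAV groups, and Trib1, a pseudokinase, from 8.04 to 2.89. Bdnf, the neurotrophin, was called in none of the 5 tables (7.15 and 5.16 FPKM between the control-AAV groups).

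**Figure D4:**
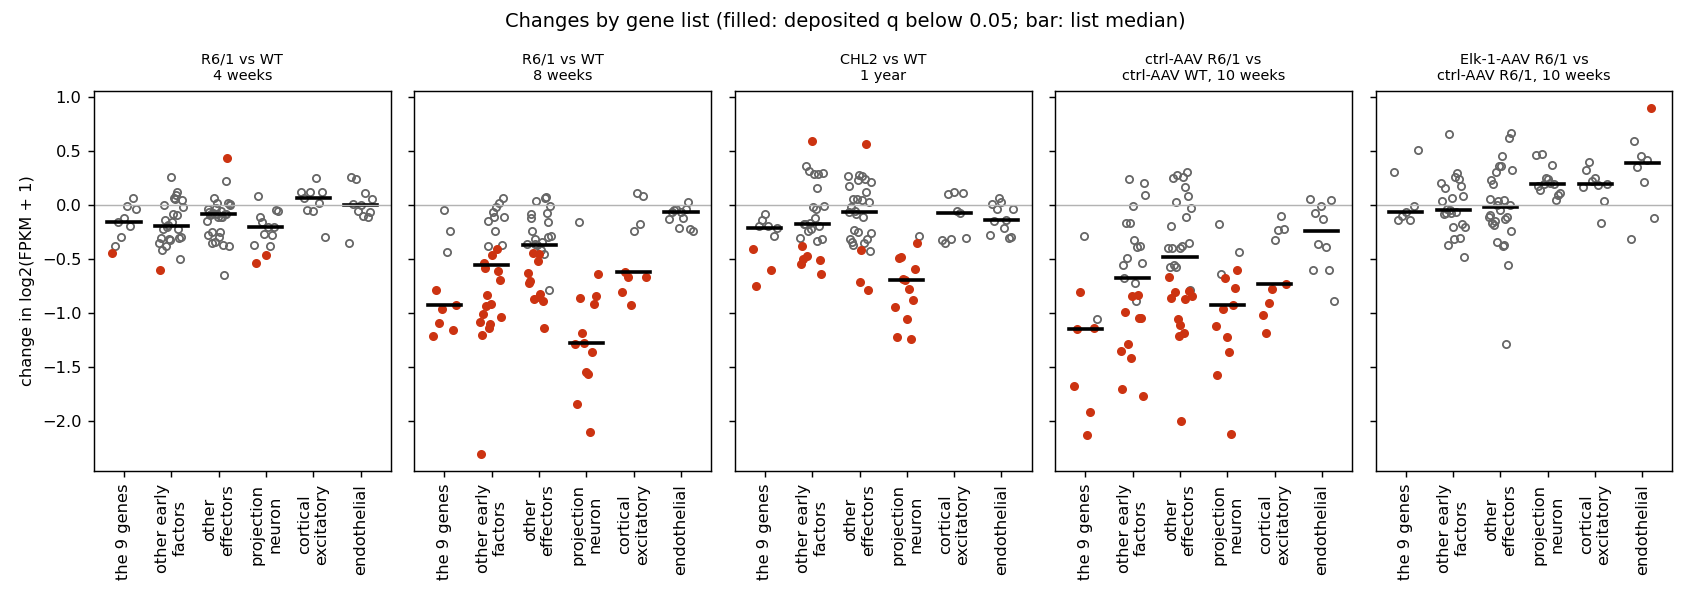
Change in log2(FPKM + 1) of single genes in each comparison, for the 9 genes and 5 lists; filled points passed q below 0.05 and the bar is the list median. At 8 weeks the bar of the 9 genes lies at -0.93, beside -0.56 for the other early factors and -1.28 for the projection neuron markers.

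Of 16 partners of Homer1 and Arc, 3 fell at 8 weeks, Shank3 (64.4 to 35.1 FPKM), Dlg4 (288 to 202) and Grm5 (60.6 to 42.6), which encode scaffolds of the postsynaptic density and the metabotropic receptor bound by Homer. Of the same 16, 2 fell between the control-AAV groups, Dlgap1 (79.1 to 47.0) and Camk2a (496 to 300), and by Cuffdiff 0 were called at 4 weeks or under Elk-1 AAV, with 0 and 1 at an unadjusted p below 0.05. In CHL2 Homer2 rose (3.95 to 5.78) and Homer3 was called in no table. Nptx1, the nearest relative of Nptx2, fell at 8 weeks (47.8 to 30.5) and between the control-AAV groups (81.8 to 50.9), where Nptx2 was not called. Gria3, an AMPA receptor subunit, was the other of 6 pentraxin partners that fell at 8 weeks. Whether the 2 pentraxins differed in their change was not tested.

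Upstream of Npas4 and the SRF genes, 13 regulators and partners were listed. Camk4, a calcium-dependent kinase that acts on CREB, fell at 8 weeks (56.6 to 30) and between the control-AAV groups (29.6 to 15.0), Srf fell at 8 weeks (21.3 to 15.1) and Mef2c between the control-AAV groups (73.4 to 42.3). By Cuffdiff 0 of the 13 were called at 4 weeks or in CHL2, with 4 and 2 at an unadjusted p below 0.05, and Elk1 was the only one called under Elk-1 AAV. In the activin pathway, of 17 genes 3 fell at 8 weeks: Acvr1c, a type I receptor (10.8 to 4.39), and the signal transducers Smad3 (21.2 to 14.9) and Smad7 (8.85 to 6.24). Acvr1c fell too in CHL2 (6.75 to 4.83) and between the control-AAV groups (3.56 to 1.96), the last close to the threshold at q = 0.0484 in the authors' own deposited table, while Acvr2a rose in CHL2 (14.1 to 21.3). Inhbb, the other beta subunit, was called in none of the 5 tables. Ctgf, the nearest relative of Cyr61 in the CCN family, fell at 8 weeks (13.8 to 5.33), in CHL2 (10.8 to 7.10) and between the control-AAV groups (30 to 11.9). Nov, another member of that family, fell at 8 weeks (30.7 to 20.3) and rose in CHL2 (20.3 to 38.5).

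Markers of cell types moved with several of these falls, and their part in the results was not tested. Of 13 projection neuron markers 2 fell at 4 weeks, 12 at 8 weeks, 12 in CHL2 and 10 between the injected R6/1 and wild-type groups. Their summed FPKM was 3457 and 1353 at 8 weeks, and none was at 0 in any table. Their presence does not measure how much neighbouring tissue a pool held. Of 9 cortical excitatory markers 5 fell at 8 weeks (summed 1216 and 786) and 5 between the control-AAV groups (1977 and 1164), and by Cuffdiff 0 were called in the other 3 tables, with 2 at 4 weeks, 4 in CHL2 and 0 under Elk-1 AAV at an unadjusted p below 0.05. In the control-AAV wild-type pool 8 of these 9 cortical markers were above the highest other wild-type pool, as were 43.6% of 12860 genes. The median ratio was 1.76 over the 9 and 0.941 over all genes, and striatal projection neuron markers had a median ratio of 0.571. The 10 endothelial markers listed for that pool had a median ratio of 0.444. By Cuffdiff 0 of them were called between the control-AAV groups (summed 87.1 and 67.7), with 3 at an unadjusted p below 0.05. A lower value in R6/1 was seen for 8 of the 10, beside 47.6% of all genes. Those 3 were Ly6c1 (41.3 and 26.9), Flt1 (1.86 and 0.878) and Klf4 (2.44 and 0.848), while Cldn5 (19.5 and 20.3) and Emcn (3.28 and 3.4) were the 2 with a higher value. Endothelial values were lower for 10 of 11 markers at 8 weeks and 8 of 11 in CHL2, beside 48.7% and 49.4% of all genes. Their median change in log2(FPKM + 1) was -0.07 at 8 weeks, -0.14 in CHL2 and -0.25 between the control-AAV groups. At 4 weeks 6 of 11 endothelial markers were lower, and under Elk-1 AAV 2 of 8, where Ly6c1 rose. Whether endothelial content had a part in the values of Klf2 and Cyr61 was not tested. Of 9 choroid plexus markers 7 fell at 8 weeks (summed 1517 and 587) and 5 rose between the control-AAV groups (346 and 1592). Of the hypothalamic and septal markers listed, 4 of 8 fell at 4 weeks (128 and 58.8), 1 of 9 rose at 8 weeks (Avp, 4.44 to 10.3, with sums of 22 and 35.1), 8 of 10 rose in CHL2 (82.9 and 200), 6 of 9 rose between the control-AAV groups (71.6 and 459) and 3 of 8 fell under Elk-1 AAV (469 and 43.7). Of 11 interneuron markers 4 fell and 1 rose at 8 weeks (summed 715 and 535), 1 fell and 1 rose in CHL2 (959 and 777), 3 fell and 1 rose between the control-AAV groups (1892 and 1281), and 1 fell under Elk-1 AAV (1311 and 1438). In the control-AAV wild-type pool 3 of these 11 exceeded the highest other wild-type pool by more than 2 times, beside 2.1% of all genes. Of 9 oligodendrocyte markers 2 fell in CHL2, Mobp (231 to 148) and Cldn11 (136 to 82.4), with sums of 4800 and 3339. Among mural and meningeal markers Acta2 rose at 8 weeks (5.61 to 11.7), and Dcn rose in CHL2 (4.41 to 13.9) and between the control-AAV groups (4.55 to 11.6). Of 8 microglia markers 2 rose under Elk-1 AAV, and the 8 astrocyte markers had at most 1 at an unadjusted p below 0.05 in a table, with 0 called by Cuffdiff. No marker of these lists was at 0 FPKM in either group of a table that lists it.

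Across the 9 pools, the genes most like each member were sought among 12162 genes with at least 1 FPKM in every pool, by Pearson's r of log2(FPKM + 1). The highest of so many correlations over 9 points is high by selection, the points share tables, and no p is given. Arc was most like Fam43a, Nr4a1 and Itpka (r = 0.97 each), and Npas4 was most like Rfc5, Fam43a (0.95 each) and Penk (0.92). Klf2 was most like Cyr61, Ttc19 (0.94 each) and Capza2 (0.93). Cyr61 was most like Stau2 (0.96), Btg2 (0.95) and Klf2 (0.94). For Homer1 the nearest were AI593442, Itga9 and Hipk4 (0.98 each), for Nptx2 Rab3ip, Cd55 (0.98 each) and Pitpnb (0.97), and for Ier2 4930444A02Rik, Stac2 (0.98 each) and Hes1 (0.97). Among the members themselves r ranged from 0.94 for Klf2 and Cyr61 to -0.06 for Homer1 and Nptx2, so the 7 genes listed in all tables did not follow 1 profile. Klf2 and Cyr61 stood at 14.9 and 12.8 FPKM in the control-AAV wild-type pool and at most at 6.61 and 5.27 in the others. Their r without that pool was not computed.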

How the data were processed

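Total RNA of mouse striatum was made into TruSeq libraries, per the labels' protocols. Per the submitters' processing notes, reads were handled with Bowtie, TopHat, Cufflinks and Cuffdiff on mm9; no versions are given. The sources used here do not give the annotation or strand setting, so reads of a gene and of an antisense partner cannot be told apart. None of the 9 genes overlaps another listed gene.

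The authors deposited 5 tables with 1 FPKM per group, a log2 fold change, a test score (not used), p-values and q-values. In a check, adjusting the p-values of each whole table by Benjamini-Hochberg returned its q-values, and the lowest p-value is 5e-05. Depth per library is unknown. As no source says that each library was its own animal, the p-values may reflect technical spread alone. The planned fit on values per library was replaced by the authors' test, since each group has 1 pooled value. Changes in log2(FPKM + 1) and list medians were computed without a filter, with pandas 2.3.3.

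Genes named are the 9 members, the 4 called genes of each list with the largest change in a table or relatives of a member, a selection of these, and the 3 genes most like each member; Btg2 at 8 weeks and genes given as not called were chosen after their values were seen. The members and lists were chosen with earlier results of these data known. Alternatives were other thresholds for q and p, another adjustment set, a pseudocount of 0.1, a filter at a mean FPKM of 2, and centring on all genes. Promoter letters were searched on both strands in RefSeq windows.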

Additional observations from a re-analysis of the deposited data

How the results depend on the processing

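With q below 0.01 the count of called members was 0 at 4 weeks in place of 1, where 0 of all 14539 genes passed, and 1 in CHL2 in place of 3, where 2.15% of all genes passed. With an unadjusted p below 0.05 it was 3 at 4 weeks, where 5.36% of all genes passed. Adjusting only over genes whose mean FPKM reached 1 kept every count of called members within 1.5 times. The median change of the 9 genes in CHL2 moved from -0.22 to -0.36 with a pseudocount of 0.1, which weighs low genes more. The other medians stayed within 1.5 times under that pseudocount, under a filter at a mean FPKM of 2 and under centring on all genes, which shifts values by at most 0.014. Of 84 single-gene values under an alternative, 5 moved by more than 1.5 times, 4 of them for Fst, and 0 changed sign. Leaving out a library was not run, since the tables hold 1 pooled value per group. No paired analysis was possible because of that pooling as well. FPKM without counts gives no limit on what depth could show.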
